A study of Mus musculus with 2 samples.

Results

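Neurotransmitter receptors are the membrane proteins through which a cell senses glutamate, GABA, glycine, acetylcholine and serotonin. Most are channels assembled from several subunits, and the subunits present set which ions pass and how fast the channel closes; the others act through G proteins. Both glial cell types of this study are known to carry such receptors: astrocytes respond to glutamate released at synapses, and cells of the oligodendrocyte lineage receive synaptic input as precursors and carry glutamate and GABA receptors that respond to axonal activity.

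The receptor genes were chosen by name: every gene probe whose gene name in the scanner file begins with Gria, Grik, Grid, Grin or Grm and a digit, or with Gabr, Gabbr, Glra, Glrb, Chrn or Htr. The rule found 86 of 27673 gene names, read by 143 of 41174 gene probes. Of these, 5 only share the letters: the serine proteases Htra1, Htra2, Htra3 and Htra4, and 1 protein that binds a receptor. The other 81 genes encode receptor subunits, 26 for glutamate, 20 for GABA, 5 for glycine, 16 for nicotinic acetylcholine receptors and 14 for serotonin. No measured value was used to choose them.

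Cultured primary cells of C57BL/6J mice were compared, without treatment. Oligodendrocytes were shaken off mixed glial cultures, and the astrocytes were the cells that stayed on the dish in medium with serum, through a later shake that removed microglia, and were taken up with trypsin. Total RNA of both cell types was hybridised together on each of 2 arrays, with the dyes exchanged: Cy5 marked oligodendrocytes on replicate 1 and astrocytes on replicate 4. Whether the replicates are different cultures is not given in the labels; p-values therefore cover just the variation between 2 arrays, possibly a technical one, and the small number limits the precision. Values are log2 ratios of oligodendrocyte over astrocyte, so a positive value is higher in oligodendrocytes. A gene is called where its ratio differed from 0 at an adjusted p under 0.05 (limma, Benjamini-Hochberg over 21899 genes). Means are given with their SD over the 2 arrays. In bulk RNA, fewer cells of a type and less RNA per cell cannot be told apart.

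The cultures carried the markers of their labels: 10 of 10 oligodendrocyte markers were higher in oligodendrocytes (median 3.57) and 9 of 9 astrocyte markers higher in astrocytes (median -3.04). Of 7 markers of oligodendrocyte precursors, 5 were higher in oligodendrocyte cultures and C1ql1 in astrocyte cultures (median 1.38). Their summed signal was 338301 and 292600 in oligodendrocyte RNA against 212030 and 260009 in astrocyte RNA. Most of it came from Ptprz1 (277830 and 225407 against 198992 and 245271), which was not called and whose arrays disagreed in sign. Markers of other cell types differed too. Of 19 neuronal markers tested, 12 were higher in oligodendrocyte cultures and 2 in astrocyte cultures. Their summed signal was 29816 and 34922 in oligodendrocyte RNA against 13969 and 13366 in astrocyte RNA. Of these sums, Elavl3 alone gave 15293 and 19281 against 2029 and 2170. Elavl3 was 1 of 6 neuronal markers at least 2-fold on both arrays toward oligodendrocytes, against 1 toward astrocytes. Over all genes tested these shares were 5.1% and 7.34%. Microglial markers were higher in oligodendrocyte cultures in 11 of 12 cases (summed signal 162563 and 202385 against 47737 and 50625), and ependymal markers higher in astrocyte cultures in 6 of 6 (14603 and 9433 against 126245 and 108704). Every tested marker of these 4 lists was well above background in both cell types, except Slc17a7 on 1 array in oligodendrocytes. Their part in the receptor values below was not tested.

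Of the 81 receptor genes, 65 could be tested because at least 1 cell type had a probe well above background on each array. Limma called 25 of the 65 (38.5%), against 41.2% of all genes tested, so the share of called genes was near the background. Higher in oligodendrocytes were 14 (21.5%, against 18.5% of all genes), and higher in astrocytes 11 (16.9%, against 22.6%). With ratios set to the spike-in RNAs instead of the typical gene, every log2 ratio falls by 0.71 and the split becomes 8 to 53; directions below are relative to the typical gene. At least 2-fold on both arrays were 7 receptor genes toward oligodendrocytes (10.8%, against 5.1% of all genes tested) and 4 toward astrocytes (6.15%, against 7.34%). Both arrays gave the same sign for 47 of 65 receptor genes (72.3%, against 76.3% of all genes tested). The median log2 ratio of receptor genes was 0.020 and that of all genes -0.0040.

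Many receptor probes gave low signals, which limits the precision of their ratios; probes differ in how strongly they bind, so signals of different probes do not rank the messages. Brightness here is the mean log2 signal over both cell types and arrays. For 49 of the 65 tested genes it lay under the median of all genes tested (8.87). Of those 49, 15 were called, against 10 of the 16 brighter ones. The 41.2% called over all genes was not split by brightness. These counts therefore do not show whether receptor genes differ from other genes of equal brightness. The background correction adds an offset of 50 to each signal, which pulls the ratios of dim probes toward 0. Feature Extraction's own log ratio, which has no such offset, moved called genes such as these by more than 1.5 times, each farther from 0: Chrng to 3.05, Grm7 to 2.68, Grik1 to 2.05, Grik2 to 1.77 and Grm3 to -2.16. The 16 genes not tested were Gabra6, Gabrq and Gabrr2 for GABA, Grin2a, Grm2 and Grm4 for glutamate, Glra3 and Glra4 for glycine, Chrna3, Chrna5, Chrna9 and Chrnb4 for acetylcholine, and Htr1a, Htr1b, Htr3b and Htr7 for serotonin. For 13 of them no probe was well above background in any channel; Grm4, Chrna3 and Chrna5 had 1 such probe in some channel.

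**Figure D1:**
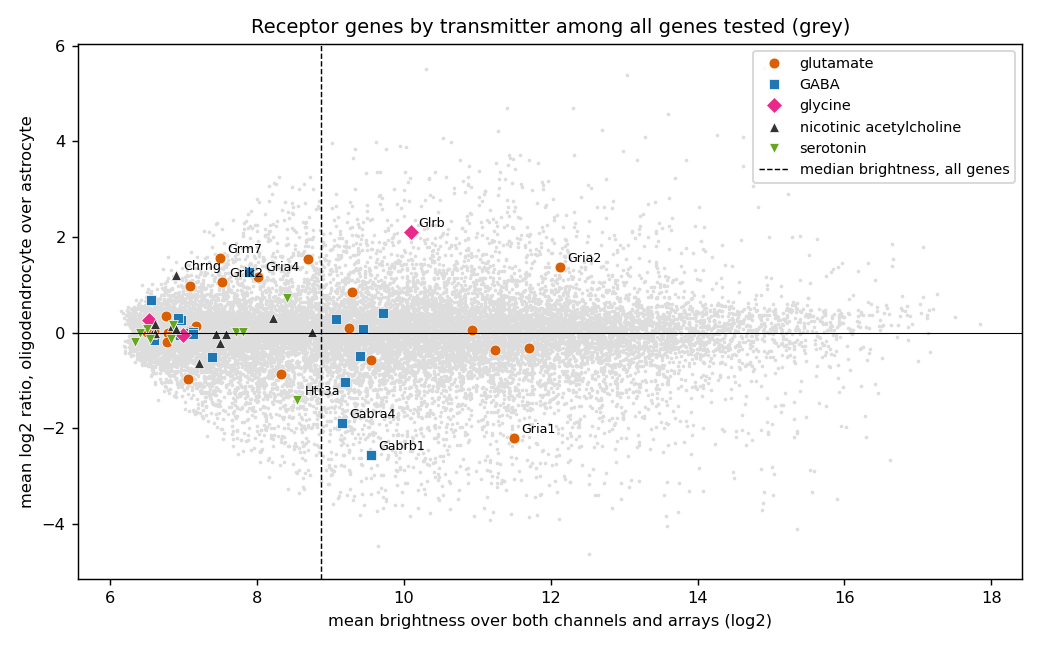
Mean log2 ratio of each tested receptor gene (coloured by transmitter) against its mean brightness in log2, over all genes tested (grey); the dashed line is the median brightness of all genes, 8.87. Of 65 receptor genes, 49 lie left of the line; Gria1, Gabrb1, Gria2 and Glrb are among the brighter genes with large ratios.

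AMPA receptors, the channels that carry fast excitatory current, differed between the cell types in opposite directions by subunit. Of 4 subunit genes, Gria1 was higher in astrocytes, Gria2 and Gria4 were higher in oligodendrocytes, and Gria3 was not called. Gria1 read 1344 and 1362 in oligodendrocyte RNA and 6213 and 6322 in astrocyte RNA (normalised signals on replicates 1 and 4, in that order throughout). Its astrocyte signals lay far above its oligodendrocyte signals on both arrays. Its log2 ratio was -2.21 on replicate 1 and -2.21 on replicate 4, a mean of -2.21 ± 0.004, or 4.63-fold (limma adjusted p = 4.19e-07). A dimmer Gria1 probe read -0.32, on the same side, and the mean of both probes was -1.26.

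Gria2, the subunit that makes AMPA receptors nearly impermeable to calcium, read 7226 and 7171 in oligodendrocyte RNA and 2907 and 2688 in astrocyte RNA. The oligodendrocyte signals were the higher on both arrays, at log2 ratios of 1.31 on replicate 1 and 1.42 on replicate 4 (mean 1.36 ± 0.072, 2.58-fold, limma adjusted p = 1.05e-05). Gria4 gave 419 and 357 in oligodendrocyte RNA and 175 and 170.3 in astrocyte RNA, a mean of 1.17 ± 0.14 (2.24-fold, limma adjusted p = 3.71e-05). All 4 of its entering probes lay on the oligodendrocyte side, between 0.64 and 1.28. Gria3 stood at 0.086 ± 0.073 on its brightest probe (95% interval -0.18 to 0.36, unadjusted, as are those below) and at -0.63 and -0.15 on its other probes; with spike-in scaling it was called higher in astrocytes at -0.62. In mm7, the build of the array design, the Gria1 probe lay on chromosome 11 from 57411500 to 57411559 and the Gria2 probe on chromosome 3 from 80793353 to 80793412.

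Among the kainate receptors, which modulate transmitter release and excitability, the low-affinity subunits Grik1 and Grik2 were higher in oligodendrocytes. Grik2 read 263 and 268 in oligodendrocyte RNA and 133 and 124 in astrocyte RNA, log2 ratios of 0.98 on replicate 1 and 1.11 on replicate 4 and a mean of 1.05 ± 0.092 (limma adjusted p = 6.8e-05). Grik1 read 181 and 202 in oligodendrocyte RNA and 104 and 92.2 in astrocyte RNA, with a mean of 0.97 ± 0.23. With median centring of the arrays in place of loess neither passed the test, at ratios of similar size (Grik2 1.07, adjusted p = 0.0538; Grik1 1.03, adjusted p = 0.0705, both limma). Grik1 also lost its call with spike-in scaling. The high-affinity subunits Grik4 and Grik5, which need a low-affinity partner to form channels, were not called. Grik4 stood at -0.33 ± 0.045 with astrocyte signals the higher on both arrays (limma adjusted p = 0.053), and Grik5 at -0.36 ± 0.47, with -0.70 on replicate 1 and -0.029 on replicate 4. Both were called higher in astrocytes with spike-in scaling (-1.04 and -1.07), and Grik4 also where genes were summarised as the mean of their probes (limma adjusted p = 0.0262). Grik4 had 1 probe, so its ratio was unchanged there. Its adjusted p moved because the fit was run again over all genes. Grik3 was dim and stood at 0.025 ± 0.17.

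Of the delta receptors, glutamate receptor relatives that act as synaptic organisers, Grid1 was dim, at 0.14 ± 0.094, and not called.

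NMDA receptors, which need both glutamate and a co-agonist to open, split between a pair of subunits. Grin2c, a subunit known from cerebellar granule cells and astrocytes, read 235 and 241 in oligodendrocyte RNA and 439 and 433 in astrocyte RNA. The astrocyte signals were the higher on both arrays and nearly alike, with log2 ratios of -0.90 on replicate 1 and -0.84 on replicate 4. Its mean of -0.87 ± 0.04 was 1.83-fold (limma adjusted p = 0.000227), from the single probe of this gene on chromosome 11 from 115358402 to 115358461 in mm7. Grin3a, a glycine-binding subunit that lowers the calcium permeability of the channel, went the other way at 846 and 839 in oligodendrocyte RNA and 474 and 464 in astrocyte RNA. Its log2 ratios were 0.84 on replicate 1 and 0.85 on replicate 4, a mean of 0.85 ± 0.013 (limma adjusted p = 0.000275). Neither gene was called with median centring (-0.90 and 0.77), and Grin3a was not called with spike-in scaling (0.14).

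The obligatory subunit Grin1 was dim in both cell types, at 147 and 155 in oligodendrocyte RNA and 125 and 151 in astrocyte RNA, and did not pass the test (0.13 ± 0.14, 95% interval -0.15 to 0.41). Grin2b (-0.0029 ± 0.16) and Grin3b (-0.20 ± 0.023) were dim too and not called. Grin2d read 2154 and 1829 in oligodendrocyte RNA and 1605 and 2284 in astrocyte RNA. Its arrays disagreed in sign, with 0.42 on replicate 1 and -0.32 on replicate 4, and with spike-in scaling it was called higher in astrocytes.

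Metabotropic glutamate receptors signal through G proteins: Grm5 raises intracellular calcium, and Grm3, Grm6, Grm7 and Grm8 lower cyclic AMP. Of these, Grm7 was higher in oligodendrocytes, and Grm3 and Grm5 higher in astrocytes. Grm7, a presynaptic receptor of low glutamate affinity, read 308 and 313 in oligodendrocyte RNA and 115 and 97.2 in astrocyte RNA, with the cell types apart on both arrays. Its mean was 1.55 ± 0.19 (2.93-fold, limma adjusted p = 6.26e-06), on a probe whose listed span in mm7 runs on chromosome 6 from 111655681 to 111725858; another probe read 0.22, and the mean of both was 0.88. Grm3, a receptor known from astrocytes, was near the lower end of the measurable signals, with astrocytes 1.96-fold higher (mean -0.97 ± 0.045, limma adjusted p = 0.000108).

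Grm5 had 721 and 524 in oligodendrocyte RNA and 891 and 947 in astrocyte RNA. Its ratio of -0.30 on replicate 1 and -0.85 on replicate 4 differed nearly by the size of its mean, -0.58 ± 0.39 (limma adjusted p = 0.0107), and all 4 of its entering probes lay on the astrocyte side, from -0.62 to -0.21. Grm3 and Grm5 were not called with median centring. Grm6 (0.036 ± 0.0027) and Grm8 (0.020 ± 0.044) were near 0.

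Over glutamate receptors as a whole, 12 of 23 tested genes were called (52.2%, against 41.2% of all genes), 8 higher in oligodendrocytes (34.8%, against 18.5%) and 4 higher in astrocytes (17.4%, against 22.6%). Their median log2 ratio was 0.052. Ionotropic subunits alone gave 6 toward oligodendrocytes (35.3%, against 18.5% of all genes) and 2 toward astrocytes (11.8%, against 22.6%) among 17.

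**Figure D2:**
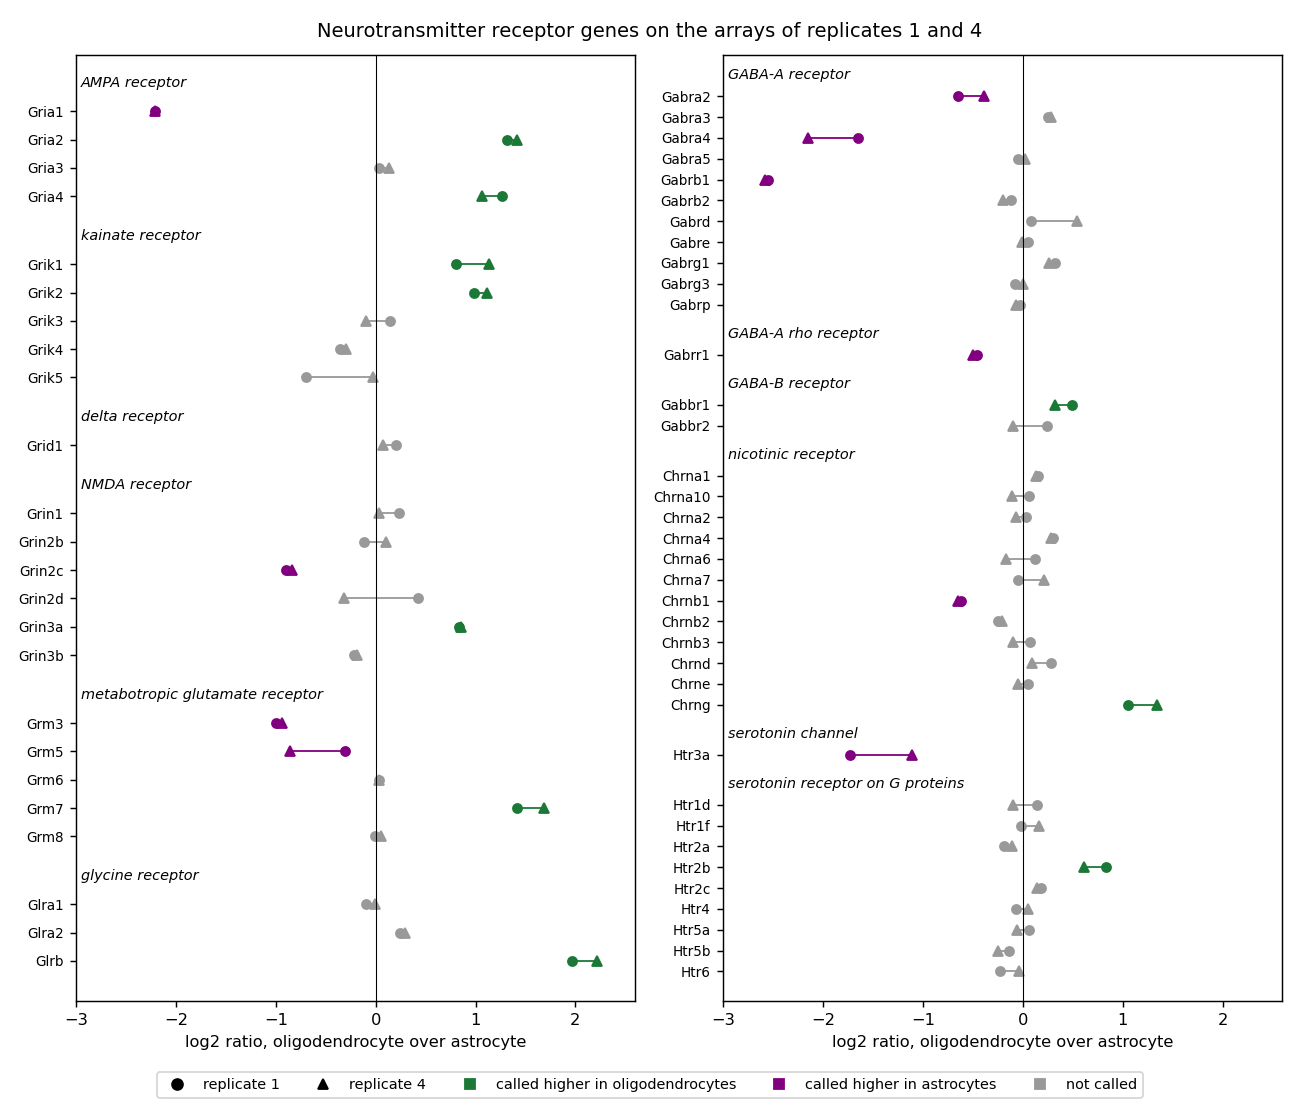
Log2 ratio of oligodendrocyte over astrocyte for 60 tested receptor genes, by receptor class, on replicate 1 (circles) and replicate 4 (triangles); green marks genes called higher in oligodendrocytes, purple those called higher in astrocytes, and grey those not called. Gria1 and Gabrb1 lie farthest to the left and Glrb farthest to the right, with both arrays of each close together, while Grin2d and Grik5 spread widely.

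GABA-A receptors, the chloride channels of fast inhibition, are pentamers of alpha, beta and usually gamma subunits. Of 14 tested subunit genes, 4 were higher in astrocytes (28.6%, against 22.6% of all genes) and 2 in oligodendrocytes (14.3%, against 18.5%), shares near the background. The beta subunit Gabrb1 had the largest ratio of any receptor gene. It read 302 and 315 in oligodendrocyte RNA and 1776 and 1887 in astrocyte RNA, a gap that was nearly the same on both arrays (-2.56 on replicate 1 and -2.58 on replicate 4). Its mean of -2.57 ± 0.019 was 5.94-fold (limma adjusted p = 1.73e-07). Gabra4, an alpha subunit of extrasynaptic receptors, read 312 and 281 in oligodendrocyte RNA and 980.4 and 1249 in astrocyte RNA. The astrocyte signal exceeded the oligodendrocyte signal on both arrays, at -1.65 on replicate 1 and -2.15 on replicate 4 (mean -1.90 ± 0.36, 3.74-fold, limma adjusted p = 3.73e-06).

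Gabra2, an alpha subunit of synaptic receptors, read 134 and 146 in oligodendrocyte RNA and 210.5 and 191 in astrocyte RNA (-0.52 ± 0.19, limma adjusted p = 0.00823). Its other probes read -0.25 and -0.12, the mean of its probes was -0.30, and it was not called with median centring (-0.49). The beta subunit Gabrb2 was dim and not called (-0.16 ± 0.054).

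Gabrg1, a gamma subunit, was not called, at 0.29 ± 0.041 (95% interval 0.021 to 0.56). Its call went either way with the processing: higher in oligodendrocytes where genes were summarised as the mean of their probes (0.29, limma adjusted p = 0.0442), and higher in astrocytes with spike-in scaling (-0.42, adjusted p = 0.00748).

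Further GABA-A subunits were dim and not called: Gabra3 (0.27 ± 0.017), Gabra5 (-0.015 ± 0.046), Gabrd (0.31 ± 0.32), Gabre (0.019 ± 0.043), Gabrg3 (-0.036 ± 0.056) and Gabrp (-0.046 ± 0.026). Gabrr1, a rho subunit that forms channels of its own, was higher in astrocytes, at 578 and 571 in oligodendrocyte RNA and 797 and 810.0 in astrocyte RNA (-0.48 ± 0.029, limma adjusted p = 0.00862), and was not called with median centring (-0.57). In all, 5 of 17 tested GABA receptor genes were higher in astrocytes (29.4%, against 22.6% of all genes) and 3 higher in oligodendrocytes (17.6%, against 18.5%), with a median of -0.015.

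GABA-B receptors work through G proteins as a pair of Gabbr1, which binds GABA, and Gabbr2, which couples to the G protein. Gabbr1 read 991 and 956 in oligodendrocyte RNA and 705 and 762 in astrocyte RNA (0.41 ± 0.12, limma adjusted p = 0.0224). Its 4 probes disagreed in size, from 1.05 on the next brightest to -0.053 on the dimmest; median centring ended its call and spike-in scaling turned it to -0.30. Gabbr2 read 832 and 612 in oligodendrocyte RNA and 703 and 657 in astrocyte RNA and was not called (0.070 ± 0.24). Another Gabbr2 probe read -0.69, and the mean of its probes, -0.31, was called higher in astrocytes, as was the spike-in scaled value.

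Some receptor genes are neighbours on a chromosome, which the name rule did not use. In RefSeq's gene order (GRCm38.p6), 18 pairs of receptor genes were adjacent or had 1 gene of another kind between them, and both genes were tested in 11. Both were called in 4 of these 11 pairs, each on the same side. Over all protein-coding genes, both were called in 22.9% of 26582 pairs that close, and on the same side in 57.5% of those. With so few pairs, 2 of which share Gabra4, the count is a description only. On chromosome 5, Gabra4 and Gabrb1 are adjacent and Gabra2 is separated from Gabra4 by Cox7b2; these 3 were higher in astrocytes, while the fourth gene of that cluster, Gabrg1, was not called. On chromosome 3, Gria2 and Glrb are adjacent and were higher in oligodendrocytes, although they serve different transmitters. In 7 pairs at most 1 gene was called; on chromosome 1, for example, Chrng was called and its neighbour Chrnd was not (0.18 ± 0.13).

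The sequences upstream of both strongest adjacent pairs are shown because both genes of each pair lay on the same side. Each is the 250 bases before an annotated start, 5′ to 3′ along the gene, from RefSeq (GRCm38.p6), and capitals mark matches to the motifs named after them. Gria2 lies at chr3:80802836-80803085 (minus strand), Glrb at chr3:80913661-80913910 (minus strand), Gabra4 at chr5:71658309-71658558 (minus strand) and the second of 2 listed Gabrb1 starts at chr5:71699682-71699931 (plus strand). The first listed Gabrb1 start lies 387 bases from that of Gabra4, on the other strand. The window of that first start is not shown, so the Gabrb1 values below hold for the second start only.
Gria2: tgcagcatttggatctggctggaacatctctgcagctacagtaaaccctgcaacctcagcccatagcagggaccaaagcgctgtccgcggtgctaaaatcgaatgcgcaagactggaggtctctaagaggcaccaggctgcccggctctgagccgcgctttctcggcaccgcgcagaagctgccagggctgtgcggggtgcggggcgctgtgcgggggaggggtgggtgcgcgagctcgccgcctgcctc
Glrb: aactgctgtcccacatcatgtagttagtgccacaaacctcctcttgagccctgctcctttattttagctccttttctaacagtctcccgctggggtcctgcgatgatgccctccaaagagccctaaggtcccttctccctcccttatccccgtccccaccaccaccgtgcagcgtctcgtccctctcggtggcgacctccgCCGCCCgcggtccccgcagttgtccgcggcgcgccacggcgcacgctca
Gabra4: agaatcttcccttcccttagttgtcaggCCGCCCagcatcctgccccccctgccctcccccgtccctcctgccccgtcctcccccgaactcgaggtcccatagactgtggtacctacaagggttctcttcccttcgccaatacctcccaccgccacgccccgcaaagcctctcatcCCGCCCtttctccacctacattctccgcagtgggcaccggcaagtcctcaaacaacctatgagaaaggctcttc
Gabrb1: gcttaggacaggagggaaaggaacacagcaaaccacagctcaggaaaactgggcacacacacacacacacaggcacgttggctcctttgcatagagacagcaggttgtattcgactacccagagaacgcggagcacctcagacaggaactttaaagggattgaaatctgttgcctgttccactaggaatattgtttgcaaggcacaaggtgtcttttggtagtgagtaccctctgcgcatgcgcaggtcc
Their G+C content was 64.8% (Gria2), 62.4% (Glrb), 61.2% (Gabra4) and 50.8% (Gabrb1), against a median of 52.4% over 32851 promoter windows of the same length. CpG pairs numbered 19, 20, 12 and 6 in that order, against a median of 6. The motifs searched on both strands, none a part of another, were the TATA box TATAAA, the Sp1 box GGGCGG, the nuclear factor I element TTGGCA, the Sox-type site ACAATG and, from the element of the neuronal repressor REST, CAGCACC. The Sp1 box was found once upstream of Glrb and 2 times upstream of Gabra4, and 32.7% of all windows hold it. The other motifs, held by 12.4%, 12.3%, 10.7% and 5.73% of windows, had no exact match in any of the 4 windows. Only exact matches were searched, so an element that departs from these letters would be missed. The Gria2 window holds the REST letters with the first one changed, on the opposite strand. Whether any window holds the full REST element was not tested.

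Glycine receptors are chloride channels in which the beta subunit Glrb anchors alpha subunits to the scaffold gephyrin. Glrb had the largest ratio of any receptor gene toward oligodendrocytes. It read 2268 and 2272 in oligodendrocyte RNA and 581 and 487 in astrocyte RNA, with the cell types far apart on both arrays. The log2 ratios were 1.96 on replicate 1 and 2.22 on replicate 4, a mean of 2.09 ± 0.18, or 4.26-fold (limma adjusted p = 8.19e-07), from 1 probe on chromosome 3 from 80948957 to 80949016 in mm7. The ligand-binding alpha subunits Glra1 (125 and 126 in oligodendrocyte RNA and 133 and 127 in astrocyte RNA) and Glra2 (99.1 and 104 in oligodendrocyte RNA and 83.7 and 84.9 in astrocyte RNA) were dim in both cell types and not called, at -0.052 ± 0.067 and 0.27 ± 0.034. Of 3 tested glycine receptor genes, 1 was called (33.3%, against 41.2% of all genes).

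Nicotinic receptors are the cation channels opened by acetylcholine, in neuronal and muscle forms. Of 12 tested genes, 1 was higher in each cell type (8.33% each, against 18.5% and 22.6% of all genes). Both called genes belong to the muscle form. Chrnb1, its beta subunit, read 115 and 123 in oligodendrocyte RNA and 177 and 193 in astrocyte RNA, at -0.62 on replicate 1 and -0.65 on replicate 4 (mean -0.63 ± 0.024, limma adjusted p = 0.00181); it was not called with median centring (-0.61). Chrng, the gamma subunit of fetal muscle receptors, read 175 and 187 in oligodendrocyte RNA and 84.7 and 73.8 in astrocyte RNA, at 1.05 on replicate 1 and 1.34 on replicate 4 (mean 1.20 ± 0.21, limma adjusted p = 4.11e-05). Chrng was well above background in astrocytes on 1 array only, and its second probe, above background throughout, read -0.14 and was not called when it stood for the gene. The muscle markers Myod1 (0.078 ± 0.16) and Ckm (-0.066 ± 0.31) were not called, and Acta1 was higher in astrocytes (-1.14 ± 0.24).

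The neuronal subunits Chrna4 and Chrnb2, which together form the main receptor of the brain, stood at 0.30 ± 0.015 and -0.23 ± 0.025, and Chrna7, which forms channels alone, at 0.082 ± 0.19; none was called. The remaining nicotinic genes, Chrna1, Chrna2, Chrna6, Chrna10, Chrnb3, Chrnd and Chrne, lay between -0.026 and 0.18 and were not called.

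Among serotonin receptors, 1 of 10 tested genes was higher in each cell type (10.0% each, against 18.5% and 22.6% of all genes). Htr3a, the only serotonin receptor that is a channel and has a tested gene here, read 232 and 227 in oligodendrocyte RNA and 772 and 489 in astrocyte RNA. The astrocyte signals differed between the arrays but both exceeded the oligodendrocyte signals, at -1.73 on replicate 1 and -1.11 on replicate 4 (mean -1.42 ± 0.44, 2.68-fold, limma adjusted p = 5.06e-05). Htr2b, a receptor on G proteins that microglia also make, read 440.4 and 436 in oligodendrocyte RNA and 248 and 285 in astrocyte RNA, with ratios of 0.83 on replicate 1 and 0.61 on replicate 4 (mean 0.72 ± 0.15, limma adjusted p = 0.00103). A second Htr2b probe read 0.75; the call was lost with median centring and with spike-in scaling (0.011). Microglial markers (median 1.18) lay on the oligodendrocyte side as well; their part was not tested. The other 8 serotonin receptor genes, Htr1d, Htr1f, Htr2a, Htr2c, Htr4, Htr5a, Htr5b and Htr6, lay between -0.20 and 0.16 and were not called.

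**Figure D3:**
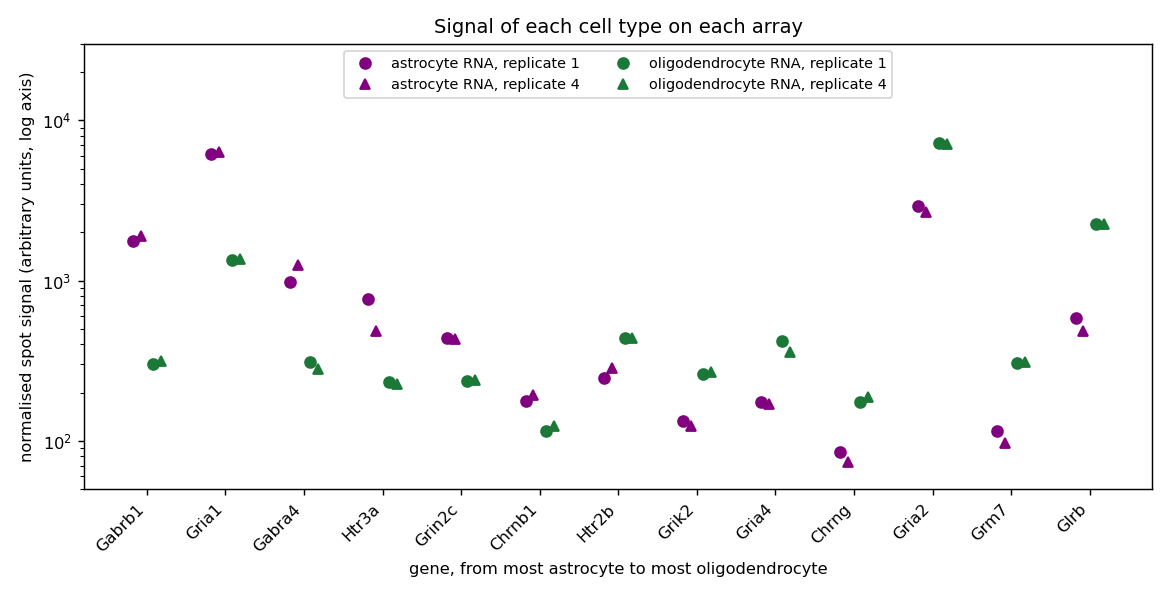
Normalised spot signal (log axis) in astrocyte RNA (purple) and oligodendrocyte RNA (green) on replicate 1 (circles) and replicate 4 (triangles) for the genes described in most detail, ordered by mean log2 ratio. For each gene shown, both signals of one cell type lie above both signals of the other; Gria1 in astrocytes (6213 and 6322) and Gria2 in oligodendrocytes (7226 and 7171) are examples.

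Several genes were read by more than 1 probe. Of 15 called receptor genes with several entering probes, 13 had every probe on the called side, and 39 of 41 probes lay there; the exceptions were 1 probe each of Gabbr1 and Chrng. No receptor gene had probes at least 0.5 from 0 on opposite sides. Sizes differed more than signs: Gria1 read -2.21 and -0.32, and Grm7 1.55 and 0.22, with the dimmer probe closer to 0 in both genes. That was not general: a dimmer probe lay farther from 0 than the brightest in Gabbr1 (1.05 against 0.41) and Gria3 (-0.63 against 0.086), among others. Whether probes read different transcript ends was not tested.

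**Figure D4:**
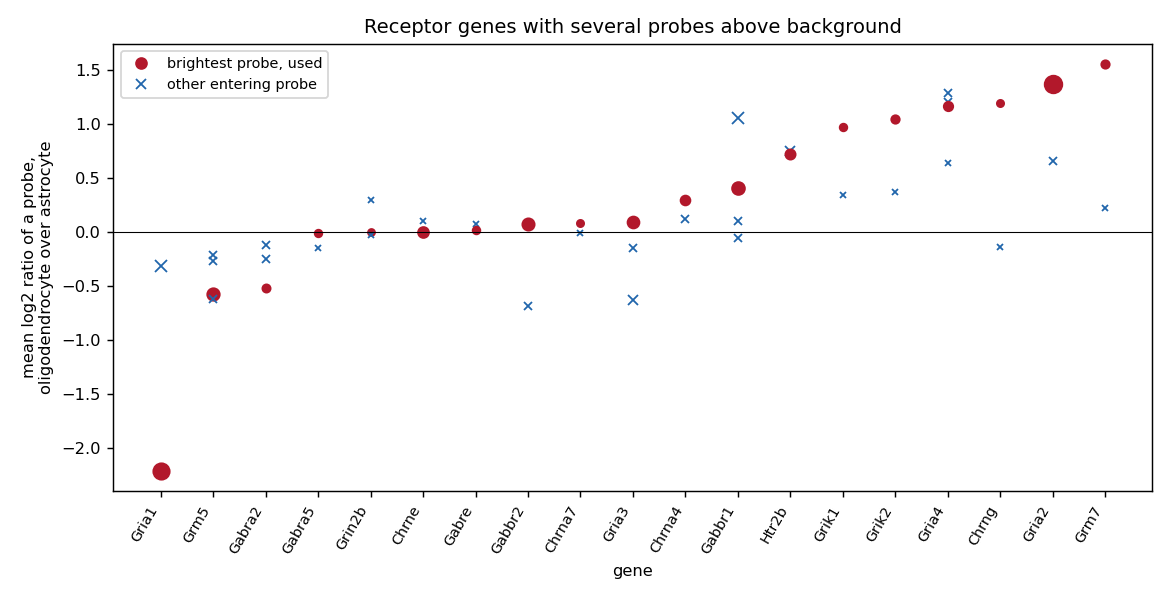
Mean log2 ratio of each entering probe for 19 of the receptor genes with several such probes; red circles are the brightest probe, which stood for the gene, blue crosses the others, and symbol size grows with brightness. The Gria1 probes stand at -2.21 and -0.32, the widest gap shown.

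The other prefix matches are no receptors. Htra1, a secreted protease that astrocytes are known to make, was higher in astrocytes, at 6313 and 6269.9 in oligodendrocyte RNA and 12570.0 and 13600.2 in astrocyte RNA (-1.06 ± 0.087, limma adjusted p = 6.42e-05). Htra3 stood at -1.23 ± 0.22 on its brightest probe, with its other probes at -0.064 and 0.017. Htra2, a mitochondrial protease, did not pass the test (0.086 ± 0.048), and Htra4 was not tested.

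Proteins that bind receptors were examined as lists. Of 14 tested genes listed with the auxiliary subunits of AMPA and kainate receptors, 4 were higher in each cell type. These were 28.6% each, against 18.5% and 22.6% of all genes, with a median log2 ratio of 0.032 over the list. Cnih3, a cornichon that slows AMPA receptor closing, was higher in oligodendrocytes (1.66 ± 0.058) and its relative Cnih2 higher in astrocytes (-1.72 ± 0.36). Cacng5, a transmembrane AMPA receptor regulatory protein, was higher in astrocytes (-1.75 ± 0.40), and its relatives Cacng2, Cacng4, Cacng7 and Cacng8 were not called. The kainate receptor partner Neto1 was higher in oligodendrocytes (1.54 ± 0.18) and Neto2 higher in astrocytes (-0.86 ± 0.18). Olfm1 (2.04 ± 0.59) and Shisa7 (0.73 ± 0.047) were higher in oligodendrocytes. Sorcs2, a sorting receptor and not an established auxiliary subunit, was higher in astrocytes (-1.06 ± 0.056).

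Of 19 tested scaffolds and ligands of glutamate receptors, 8 were higher in oligodendrocytes (42.1%, against 18.5% of all genes) and 1 higher in astrocytes (5.26%, against 22.6%), with a median of 0.057. Dlgap3 (0.94 ± 0.18), Homer2 (0.73 ± 0.19) and Dlg1 (0.73 ± 0.10) were among the 8, as was Cbln1 (0.86 ± 0.14), a secreted synaptic ligand. Shank3 was the one on the astrocyte side (-1.08 ± 0.35). Of 20 scaffolds and trafficking proteins of inhibitory receptors, 8 were higher in oligodendrocytes (40.0%, against 18.5%) and 5 in astrocytes (25.0%, against 22.6%). The median of the 20 proteins was 0.10. They included gephyrin, Gphn, at 0.40 ± 0.02, Iqsec3, its partner, at 2.12 ± 0.30, Trak2 at 1.07 ± 0.20 and Trak1 at -0.91 ± 0.036. Lhfpl3 (2.48 ± 0.12), also a marker of oligodendrocyte precursors, had the largest ratio of the list. Neuronal markers (median 0.60) lay on the oligodendrocyte side too, and their part was not tested.

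Of 10 tested chaperones and modulators of nicotinic receptors, 4 were higher in astrocytes (40.0%, against 22.6% of all genes) and 2 in oligodendrocytes; the median was 0.11. Lynx1, a membrane protein that restrains nicotinic receptors, stood at -1.81 ± 0.042 and its relative Ly6h at -1.02 ± 0.076, while Lypd1 was higher in oligodendrocytes (1.21 ± 0.13). Of 20 other transmitter receptors on G proteins, 5 were higher in astrocytes (25.0%, against 22.6%) and 2 in oligodendrocytes (10.0%, against 18.5%). All tested muscarinic and dopamine receptor genes were uncalled, while adrenergic receptors went both ways: Adra2a (-2.83 ± 0.065) and Adrb1 (-2.20 ± 0.0065) were higher in astrocytes, and Adra1b (1.46 ± 0.12) higher in oligodendrocytes.

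**Figure D5:**
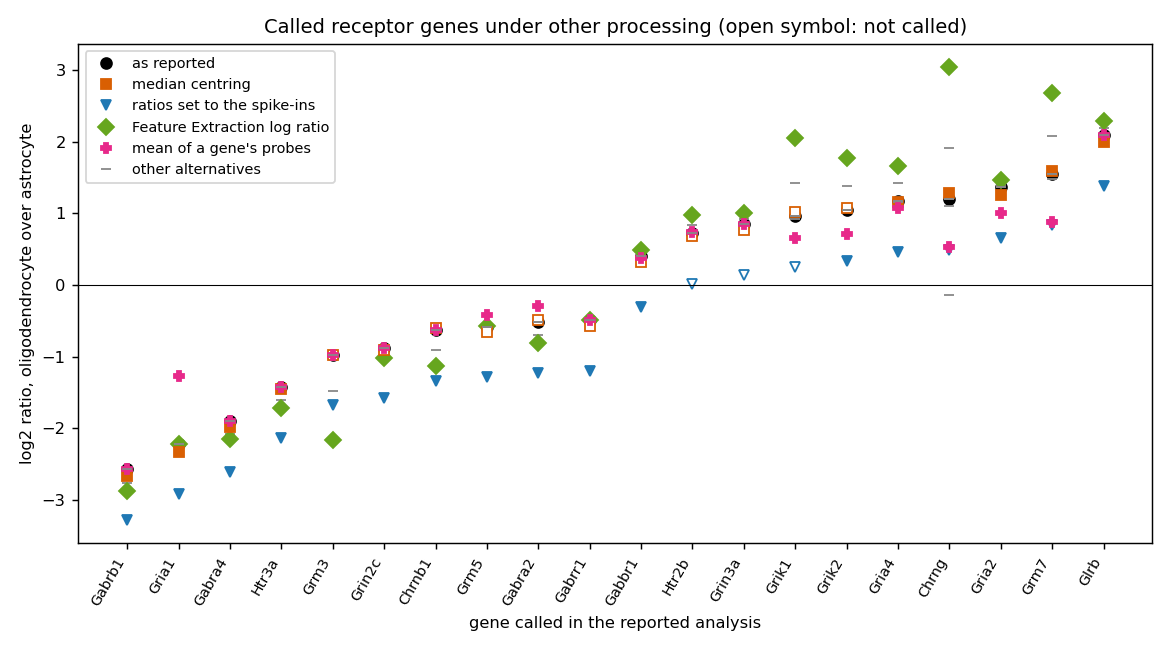
Log2 ratio of 20 called receptor genes as reported (black) and under other processing (colours and grey dashes); an open symbol marks a value that was not called, and both values of the Feature Extraction log ratio and the authors' table are the same and drawn once. Gabrb1, Gria1, Gabra4 and Htr3a stay below 0 and Gria2, Grm7 and Glrb above 0 throughout, while Gabbr1 crosses 0 with spike-in scaling and Chrng crosses it where both cell types had to be above background.

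Under all 12 alternatives with a test, and on each array alone, 21 of the 25 called genes kept their direction. Under the 12, 11 kept their call as well. Among the 11 were Gria1, Gria2, Gria4, Grm7, Gabrb1, Gabra4, Glrb and Htr3a. Median centring ended the calls of 13 others, whose log2 ratios moved by 0.011 to 0.15 in size, and Chrng was the remaining gene.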

How the data were processed

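The deposited scanner files of 2 two-colour Agilent arrays hold spot intensities, not normalised by the authors, read with Feature Extraction 9.5.3.1 per the file headers. The deposited log10 ratios (Cy5 over Cy3, dye swap not turned) are the scanner software's own, corrected for background and dye, per the file headers; the authors' value table holds the same log10 ratios (largest difference 0). Each array had 43379 gene spots, none saturated, of which 76.6% to 83.9% were well above background in a channel. Both arrays share 1 slide and 1 scan, so batch was not tested.

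Intensities were corrected with normexp (offset 50), normalised by loess (control spots had weight 0) and, after turning the dye-swapped array, averaged per probe (limma 3.58.1, R 4.3.3). Signals shown are further scaled between arrays (Aquantile). Entering probes were well above background on each array in at least 1 cell type and had no outlier mark (32565 of 41174; no receptor probe was marked). The brightest entering probe stood for a gene, and lmFit and eBayes tested its ratio against 0. A further 4 probes that RefSeq assigns to receptor symbols under other file names were left out. The fit was tested on simulated data.

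Detailed values are given for called receptor genes with a log2 ratio of at least 1 in size, for Grin2c, and for the 2 largest called genes of transmitters with fewer than 2 such genes; other genes are named more briefly. The uncalled genes described singly and the genes singled out from the lists were chosen after their values were seen, as were the 4 promoters and the motifs. The members and lists were chosen with earlier results of these data known. Some genes are counted in the totals but not reported here by name or value.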

Additional observations from a re-analysis of the deposited data

How the results depend on the processing

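Reported counts stand in parentheses. Over all genes, 1085 (4062) were called higher in oligodendrocytes and 1843 (4954) in astrocytes with median centring in place of loess, and 1301 and 18285 with ratios set to the spike-ins. With median centring, 7 receptor genes were called higher in oligodendrocytes (14) and 5 in astrocytes (11): for glutamate 4 (8) and 1 (4), for GABA 1 (3) and 3 (5), for nicotinic receptors in astrocytes 0 (1) and for serotonin in oligodendrocytes 0 (1). With the spike-ins, the counts were 8 and 53, for glutamate 5 and 16, for GABA 1 and 15, for glycine 2 in astrocytes (0), for nicotinic receptors 11 in astrocytes and for serotonin 0 and 9; that scaling lowers all genes alike. Feature Extraction's log ratio, and the authors' table, gave 5 GABA, 2 glycine and 2 serotonin genes in oligodendrocytes and 2 serotonin genes in astrocytes, and an offset of 10 gave 5 GABA and 2 glycine genes in oligodendrocytes and 2 serotonin genes in astrocytes. Requiring both cell types above background left 0 nicotinic genes in oligodendrocytes, and no filter gave 2 in astrocytes. The cause was not tested. All other counts of receptor genes with a test stayed within 1.5 times the reported ones.

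Spike-in scaling turns the sign of every gene whose ratio lies between 0 and 0.71, uncalled genes included. Turned and called in the reported or the spike-in analysis were, among the genes examined here, Gabbr1 (-0.30), Gabbr2 (-0.64), Gabrg1 (-0.42), Gria3 (-0.62) and Grin2d (-0.66). Chrng turned to -0.14 where both cell types had to be above background, and Gabbr2 to -0.31 with the mean of its probes. With a single array left there is no test. Dim signals limit what can be seen: an uncalled dim gene may differ by an amount these arrays cannot show.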
